A study of Mus musculus with 3 samples.

Results

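The 40 genes described here are transcribed mainly in dividing cells, and they were taken by symbol from the 31053 genes in the count files. All 40 were found. They comprise 10 core genes of DNA synthesis (S core, *Mcm2* to *Mcm7*, *Pcna*, *Tyms*, *Rrm1* and *Rrm2*), 10 further S-phase genes (S other, *Gins2*, *Cdc6*, *Cdc45*, *Uhrf1*, *Dut*, *Slbp*, *Pclaf* and the histone genes *Hist1h1b*, *Hist1h2ap* and *Hist1h2ae*), 19 genes of G2 and mitosis (G2/M, *Mki67*, *Top2a*, *Birc5*, *Ccna2*, *Ccnb1*, *Ccnb2*, *Cdk1*, *Cdc20*, *Ube2c*, *Tpx2*, *Cenpe*, *Cenpf*, *Cenpa*, *Aurka*, *Aurkb*, *Bub1*, *Bub1b*, *Nusap1* and *Kif11*) and *Stmn1*, a microtubule-destabilizing protein that was assigned to neither phase. They were measured by scRNA-seq in 3 droplet libraries of live cells sorted from mouse brain around a glioblastoma implant, 1 from vehicle-treated mice (vehicle control 2) and 2 from niacin-treated mice (niacin 1 and niacin 2). All mice were female C57BL/6, 6 to 8 weeks old, with BT0309 brain tumor-initiating cells, which derive from a tumor of an *Nf1*+/-;*Trp53*+/- mouse, in the right striatum. Niacin was injected at 100 mg/kg daily from day 7, controls received saline, and tissue was collected in week 4. Each library is 1 pool, of 5 mice by Methods and of 4 tissues by the labels, so that single animals cannot be told apart and there is no second vehicle library.

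Cells copy their DNA in S phase. The MCM2 to MCM7 proteins form the ring-shaped helicase that opens the double helix, PCNA is the sliding clamp that holds the polymerase on DNA, and thymidylate synthase (*Tyms*), dUTPase (*Dut*) and ribonucleotide reductase (*Rrm1*, *Rrm2*) keep the nucleotide supply. Cyclin B, CDK1, the Aurora kinases and the spindle checkpoint kinases drive and time mitosis in G2/M, CENPA, CENPE and CENPF act at the centromere, and Ki-67 (*Mki67*) and topoisomerase II alpha (*Top2a*) organize the chromosomes. Transcripts of replication genes can also be present outside S phase, because PCNA serves DNA repair and the MCM proteins serve the licensing of replication. Most mitotic transcripts are present only around division. Microglia and brain macrophages renew themselves by local division, and activated T and B lymphocytes divide rapidly.

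Much of the timing of these genes is set at their promoters, where E2F sites mark replication genes and the CHR element (cell cycle genes homology region), often beside CCAAT boxes, marks mitotic genes. RefSeq windows of 250 bases upstream of the transcript start (GRCm38.p6) were available for 31 of the 40 members. E2F-type motifs were sought on both strands as TTCCCGC, further as TTGGCGC, then in the spelling TTGCCGC, and finally with the letters TTCGCGC. At least 1 of them was present in 46.7% of 15 S members and 18.8% of 16 G2/M members, against 7.97% of the windows of 27025 genes. The CHR motif, TTTGAA on either strand, showed the opposite order, with 13.3% of S members and 43.8% of G2/M members, against 16.3% of all genes. The CCAAT box, on either strand, was present in 80% and 87.5% of S and G2/M members and in 34.5% of all genes. These shares describe letters in a window and not bound sites. Promoters of 2 members of each kind are printed because the S and G2/M transcripts differed in distribution between cells, as described below. Each printed window lies upstream of its own gene in GENCODE and holds no base of it. Overlap with other genes was not examined. E2F-type motifs are in capitals in the first pair, where neighboring matches overlap, and CHR and CCAAT motifs are in capitals in the second pair.
*Mcm5*, chr8:75109259-75109508, plus strand: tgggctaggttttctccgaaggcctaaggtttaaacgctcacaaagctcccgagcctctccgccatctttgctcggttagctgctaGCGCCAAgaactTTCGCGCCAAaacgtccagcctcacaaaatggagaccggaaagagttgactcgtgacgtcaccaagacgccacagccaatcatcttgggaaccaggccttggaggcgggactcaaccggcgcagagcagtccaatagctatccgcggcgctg
*Mcm6*, chr1:128359706-128359955, minus strand: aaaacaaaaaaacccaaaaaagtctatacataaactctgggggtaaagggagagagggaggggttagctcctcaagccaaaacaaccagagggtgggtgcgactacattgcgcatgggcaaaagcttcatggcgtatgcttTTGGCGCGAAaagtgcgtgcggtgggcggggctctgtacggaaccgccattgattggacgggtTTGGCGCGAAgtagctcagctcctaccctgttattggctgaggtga
*Ccnb2*, chr9:70421555-70421804, minus strand: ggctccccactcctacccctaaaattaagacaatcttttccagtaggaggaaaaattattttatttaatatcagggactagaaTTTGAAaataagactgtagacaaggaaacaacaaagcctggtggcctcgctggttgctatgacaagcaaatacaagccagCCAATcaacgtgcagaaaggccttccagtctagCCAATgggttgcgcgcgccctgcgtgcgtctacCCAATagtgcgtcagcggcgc
*Mki67*, chr7:135716380-135716629, minus strand: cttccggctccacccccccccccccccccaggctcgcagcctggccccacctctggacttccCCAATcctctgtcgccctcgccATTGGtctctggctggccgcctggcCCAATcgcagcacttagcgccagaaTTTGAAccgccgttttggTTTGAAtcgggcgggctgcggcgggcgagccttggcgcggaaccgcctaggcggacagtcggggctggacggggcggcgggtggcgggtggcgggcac
The *Mcm5* and *Mcm6* windows contained no CHR motif but 2 CCAAT boxes each, left in lower case, and the *Mki67* window contained 2 CHR motifs and 1 E2F-type motif, the latter left in lower case.

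The libraries held 2270, 2145 and 2532 barcodes with 8301228, 9373321 and 10359526 UMIs (unique molecular identifiers, each a captured RNA molecule) in the order vehicle control 2, niacin 1 and niacin 2, which is the order of all triplets of values below. Of 6947 barcodes, 5528 passed the limits of 200 genes and of 20% for the mitochondrial fraction, and the 3039 of these with at least 2000 UMIs were analyzed (805, 1078 and 1156). Their median depth was 6934, 6391 and 6489.5 UMIs. Mitochondrial UMIs made up a median of 8.85% per barcode in vehicle control 2, against 3.08% and 3.29% in the niacin libraries. Barcode sequences were shared between libraries for 811 of the 3039 cells, and 1194 of 1197 pairs of copies with a class in both libraries (99.7%) carried the same class. Keeping only the deepest copy of each barcode left 3022 cells. Results are therefore given with and without the shared barcodes where these change them.

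Cells were classed by UMIs of lineage markers, which yielded 1578 microglia (*Tmem119* in 97.3% of them), 371 other myeloid cells (*Cybb* in 95.7%), 339 T cells (*Cd3e* in 94.7%), 34 NK cells (*Ncr1* in 85.3%) and 90 B cells (*Cd79a* in 98.9%). Of the T cells, 50 also carried at least 3 UMIs of NK markers. Choroid plexus cells (273) and neutrophils (117), which are largely postmitotic, served as background. As limits of this background, 5 neutrophils (4.27%) had 8 or more members, up to 31, and 62 choroid plexus cells carried at least 3 UMIs of tumor or neural stem cell markers. A class held as few as 3 cells in a library (NK in niacin 1), and B cells numbered 17, 27 and 46.

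At least 3 of the 40 members were detected in a minority of microglia, in a similar share of other myeloid cells and in a larger share of T cells. In microglia the share was 44.2% of 274 cells (exact 95% CI 38.2 to 50.3), 31.4% of 660 (27.8 to 35.1) and 34.2% of 644 (30.5 to 38.0), a mean of 36.6% ± 6.73 (SD, n = 3 libraries). In other myeloid cells it was 35.3%, 36.8% and 38.0% (36.7% ± 1.34), and in T cells 58.8%, 60.5% and 57.4% (58.9% ± 1.56). T cells were thus above microglia and other myeloid cells in each library, with counting intervals apart from those of microglia in both niacin libraries, barely overlapping them in vehicle control 2 (50.1 to 67.2) and overlapping those of other myeloid cells in both niacin libraries. NK cells reached 40.9%, 66.7% and 55.6% and B cells 58.8%, 33.3% and 30.4%, with intervals that overlapped those of microglia in each library. The background was 14.7%, 17.2% and 16.2% in choroid plexus cells, with a median of 5769 to 7339.5 UMIs per library against 6046.5 to 7415.5 in microglia, and 5.71%, 7.69% and 16.3% in neutrophils. No test was run on these shares, because they score the members themselves, and all intervals cover counting error only.

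**Figure D1:**
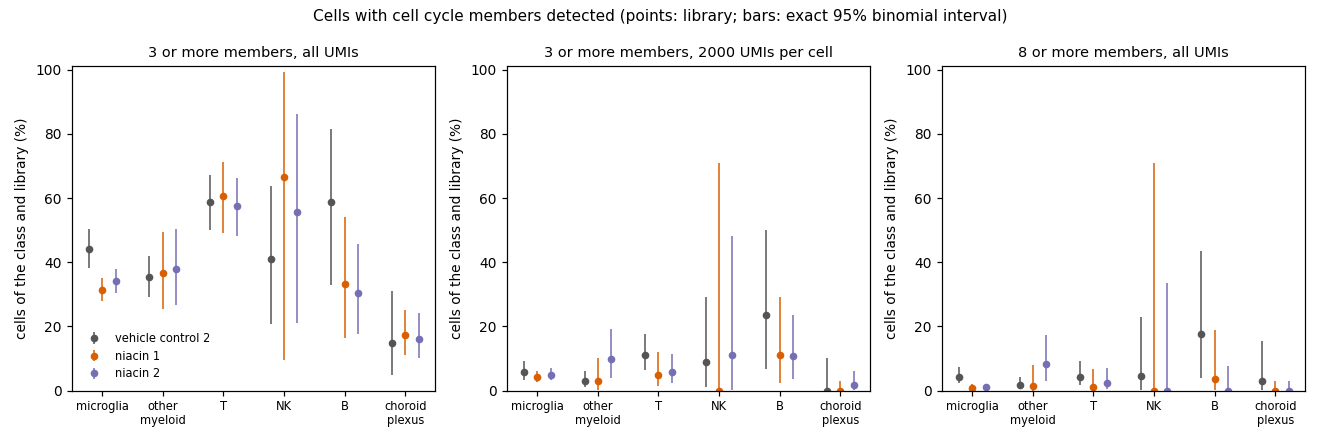
Share of cells (y axis, percent of the class and library) by class (x axis) and library (colour). Left, cells with at least 3 of the 40 members; middle, the same after thinning each cell to 2000 UMIs; right, cells with 8 or more members. Bars are exact 95% binomial intervals. T cells lie at 57.4% to 60.5% on the left, above microglia (31.4% to 44.2%). In the middle panel the intervals of T cells and microglia overlap in each library.

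The share depended on depth and on the number of members required. When each cell was thinned to 2000 UMIs it fell to 5.84%, 4.24% and 4.97% in microglia, 3.02%, 2.94% and 9.86% in other myeloid cells, 11%, 4.94% and 5.74% in T cells and 23.5%, 11.1% and 10.9% in B cells, while 0%, 0% and 1.71% of choroid plexus cells still held 3 members. At this equal depth the T cell share overlapped that of microglia in all 3 libraries. Without the shared barcodes, which removed many of the deepest cells, the unthinned share was 37.3%, 20.7% and 30.4% in microglia, 23.9%, 17.2% and 20.5% in other myeloid cells and 57.1%, 49.0% and 53.8% in T cells. The threshold cut through a continuous distribution. Of the microglia, 401 had exactly 2 members and 273 exactly 3, the median was 2, and 245 had none. Microglia with at least 3 members had a median of 7691 UMIs, and those with none had 3527.

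Of the 548 microglia with at least 3 members, 411 (75%) lacked any G2/M transcript, against 44.2% of the 199 such T cells and 37.3% of the 134 such other myeloid cells. The microglia with 3 to 7 members owed them to a few genes. *Pcna* was detected in 66.3% of these 523 cells, *Slbp*, the stem-loop binding protein that processes histone mRNA, in 61.2%, *Hist1h2ap* in 45.7%, *Hist1h2ae* in 39.6% and *Mcm3* in 29.6%, and these 5 genes gave 65.6% of all detections. The same 5 genes gave 36.0% of detections in T cells with 3 to 7 members, where the helicase genes *Mcm6* (36.5%) and *Mcm4* (32.3%), *Dut* (34.4%) and *Cenpa* (27.0%) were frequent beside *Slbp* (55.6%) and *Pcna* (52.4%). In choroid plexus cells with 3 to 7 members *Dut* (70.5%) and *Pcna* (45.5%) led. The levels of the 2 histone H2A genes are uncertain, since their 3′ ends share 91-base stretches with 19 other genes each, over 92.3% of the positions examined for *Hist1h2ap* and 47.6% for *Hist1h2ae*. Stretches were also shared over 25.3% of positions for *Stmn1*, 22.6% for *Ccnb1* and 15.7% for *Mcm7*.

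The mitotic transcripts were concentrated in very few cells. Only 25 microglia (1.58%) had 8 or more members, up to 26, and they held 72.7% of the G2/M UMIs of all microglia (599 of 824) but 11.1% of the S core UMIs (239 of 2148). They held 3.40% of all microglial UMIs. The 8-member level was chosen after the distribution had been seen and uses the members themselves, so these shares are descriptions. By library the cells numbered 12 of 274 microglia in vehicle control 2 (4.38%, exact 95% CI 2.28 to 7.53), 6 of 660 in niacin 1 (0.909%, 0.334 to 1.97) and 7 of 644 in niacin 2 (1.09%, 0.438 to 2.23), and held 87.2%, 24.1% and 64.0% of the G2/M UMIs. Among other myeloid cells 4 of 232, 1 of 68 and 6 of 71 had 8 or more members and held 76.0% of G2/M and 40.6% of S core UMIs over the 3 libraries. In T cells (6 of 136, 1 of 81 and 3 of 122) the share of G2/M UMIs was 29.7% and that of S core UMIs 24.2%. Of the 90 B cells, 4 had 8 or more members and held 93.4% of G2/M UMIs, and 1 cell of niacin 1 alone held 262 of the 274 G2/M UMIs of B cells in that library.

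Over all classes there were 72 cells with 8 or more members, of 66 distinct barcodes, and 57 of the 72 cells carried a barcode present in another library. These comprised all 11 other myeloid cells and 19 of the 25 microglia. The 25 microglia were deep, with a median of 12147 UMIs. The microglia marker list summed to 9020 CPM (a gene's UMIs over all UMIs of the cells named, scaled to 1000000) in them, against 13852 CPM in microglia with no member, while the other myeloid list was at 494 against 133 CPM, the T cell list at 178 against 21.4 CPM and the tumor or neural stem cell list at 17.5 against 1.86 CPM. Whether droplets with 2 cells contributed to this was not tested. The 11 other myeloid cells kept their own marker list at 6362 CPM, against 5995 CPM in those with no member.

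**Figure D2:**
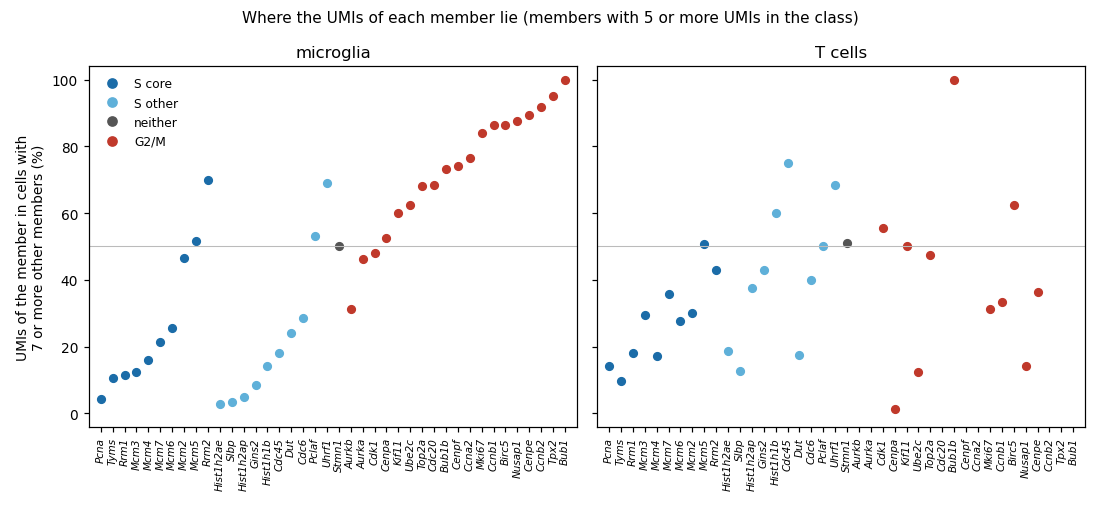
Share of each member's UMIs (y axis, percent) in cells with 7 or more of the other members, for microglia (left) and T cells (right), with members along the x axis coloured by list. The G2/M members reach a median of 74.2% in microglia, against 18.7% for S core, and 36.4% in T cells, against 28.4%.

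The concentration was measured gene by gene as the share of a member's UMIs that lay in cells with at least 7 of the other 39 members. In microglia the G2/M genes had a median of 74.2%, and 16 of 19 were above 50%. *Tpx2*, which nucleates spindle microtubules, was at 95%, cyclin B2 (*Ccnb2*) at 91.8%, the centromere motor *Cenpe* at 89.5%, *Nusap1* at 87.5%, survivin (*Birc5*) at 86.5%, *Ccnb1* at 86.4% and *Mki67* at 83.9%. The S core genes had a median of 18.7% and the S other genes 16.2%, with *Hist1h2ae* at 2.76%, *Slbp* at 3.27%, *Pcna* at 4.29% and *Hist1h2ap* at 4.83%. In T cells the medians were 28.4% for S core and 36.4% for the 11 G2/M genes with at least 5 UMIs, of which 3 were above 50%. *Cenpa*, which encodes the centromeric histone H3 variant, was spread over T cells with few other members, with 1.12% of its UMIs in such cells. In other myeloid cells the S core median was 55.3% and the G2/M median 86.8%. These shares depended on the shared barcodes. Without them, over members with at least 5 UMIs left, the G2/M median of microglia was 43.1%, with 8 of 18 members above 50%, and the S core median was 5.28%. *Tpx2* was then at 75% of 8 UMIs, *Mki67* at 52.2% of 23 and *Top2a* at 35% of 20. In other myeloid cells the share was 0 for each member with at least 5 UMIs left, since all cells with 8 or more members there carried shared barcodes. In T cells the medians were 11.2% for S core and 46.8% for 8 G2/M genes, 1 of them above 50%.

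The balance of S core against G2/M transcripts was described by class and library. S core UMIs made up 50.2% of the S core and G2/M UMIs of microglia in vehicle control 2, 87.6% in niacin 1 and 80.2% in niacin 2 (72.7% ± 19.8, SD, n = 3). The S core level was 251, 212 and 196 CPM summed over the 10 genes, highest in the vehicle library. The G2/M level was 248, 29.9 and 48.4 CPM, and here the vehicle library stood further above both niacin libraries. In microglia with under 8 members the G2/M level was 34.9, 23.1 and 17.8 CPM and the S core share 87.0%, 89.5% and 90.9%. T cells had an S core share of 72.5%, 73.7% and 79.6% (75.3% ± 3.78) from 450, 246 and 297 CPM of S core and 170, 87.8 and 76.2 CPM of G2/M transcripts. Other myeloid cells had 48.9%, 66.1% and 35.8% (50.3% ± 15.2), with a G2/M level of 184, 68.0 and 600 CPM that was highest in niacin 2. B cells varied most, with 34.5%, 12.2% and 73.2%. NK cells had 84.9%, 85.7% and 100%. A level of 0 CPM, here and below, allows up to 3 UMIs in the cells summed.

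**Figure D3:**
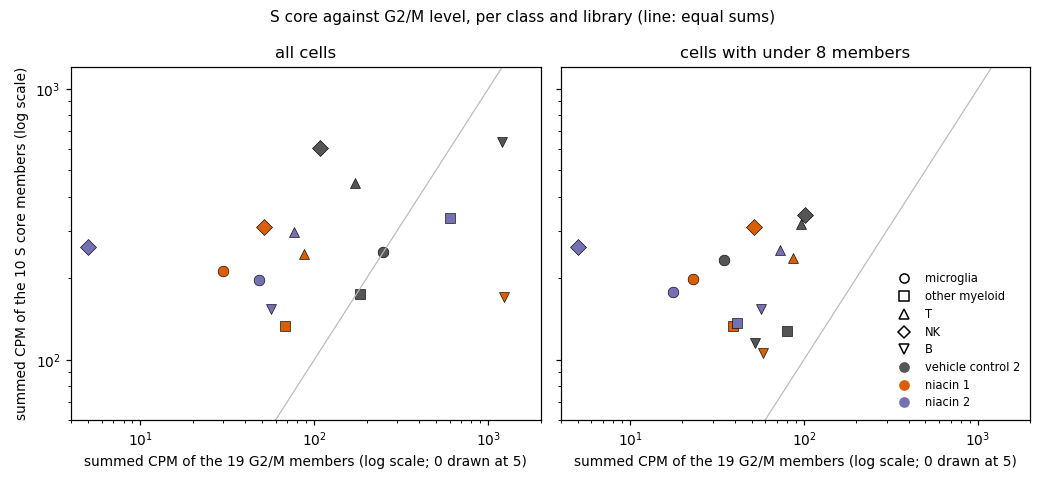
Summed level of the 10 S core members (y axis, CPM, log scale) against that of the 19 G2/M members (x axis, CPM, log scale, 0 drawn at 5) for each class (symbol) and library (colour), in all cells (left) and in cells with under 8 members (right). The line marks equal sums. The points of vehicle microglia (248 CPM of G2/M) and of niacin 2 other myeloid cells (600 CPM) move to the left when cells with 8 or more members are left out.

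The class comparison asked which members differ between immune lineages. UMIs were summed per library and class, and sums of at least 20 cells were tested in 1 model with edgeR's quasi-likelihood test and the library as a block. Of 10510 genes tested, 38 were members, and *Gins2* and *Cdc6* were too low. T cells differed from microglia in 5 of the 6 helicase genes. *Mcm6* was at 78.8, 50.9 and 60.5 CPM in T cells and at 10.7, 9.55 and 9.43 CPM in microglia. *Mcm4* was at 54.0, 42.1 and 47.0 CPM in T cells and at 9.77, 7.23 and 7.98 CPM in microglia. Neither gene's libraries overlapped between the classes, and the same held for *Mcm2*, at 37.8, 15.8 and 17.9 CPM against 6.84, 3.87 and 3.87 CPM. *Mcm5* was at 43.2, 10.5 and 14.6 CPM in T cells and at 4.39, 3.61 and 7.98 CPM in microglia, so that the lowest T cell value lay above the highest microglial value. *Dut*, whose enzyme keeps uracil out of DNA, was at 58.3, 56.2 and 50.4 CPM in T cells against 6.84, 6.45 and 8.71 CPM. Of the 38 members, 7 were higher in T cells and none lower, where 50.1% of all genes tested passed, 24.1% higher and 26% lower. The 5 with the largest differences were *Dut* (log2 fold change 3.15 ± 0.41 SE, adjusted p = 3.74e-05 by edgeR), *Mcm6* (2.86 ± 0.36, adjusted p = 2.72e-05), *Mcm4* (2.71 ± 0.25, adjusted p = 1.41e-06), *Mcm2* (2.44 ± 0.57, adjusted p = 0.00321) and *Mcm5* (2.24 ± 0.52, adjusted p = 0.00282), and *Cenpa* (2.04) and *Mcm7* (1.52) also passed. Thus 5 of the 10 S core genes, 1 of 8 tested S other genes and 1 of 19 G2/M genes were higher. *Pcna* was at 122, 64.9 and 75.0 CPM in T cells against 136, 120 and 96.3 CPM in microglia, with a log2 fold change of -0.27 (adjusted p = 0.329 by edgeR), and *Slbp* differed by 0.19 (adjusted p = 0.487). *Mki67* was at 22.7, 1.76 and 11.2 CPM and *Top2a* at 62.6, 17.6 and 11.2 CPM in T cells, with log2 fold changes of 0.54 and 2.21 that did not pass. The other 31 tested members did not pass the test, and the median over the tested members was 0.06, against -0.03 over all genes. The 7 calls were kept without the cells of 8 or more members and without the shared barcodes, *Mcm5* and *Mcm7* did not pass without the vehicle library, and *Cenpa* did not pass without niacin 1. Without niacin 2, 9 of 34 tested members were higher and 2 lower, beside 1738 and 1985 of 10179 genes.

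**Figure D4:**
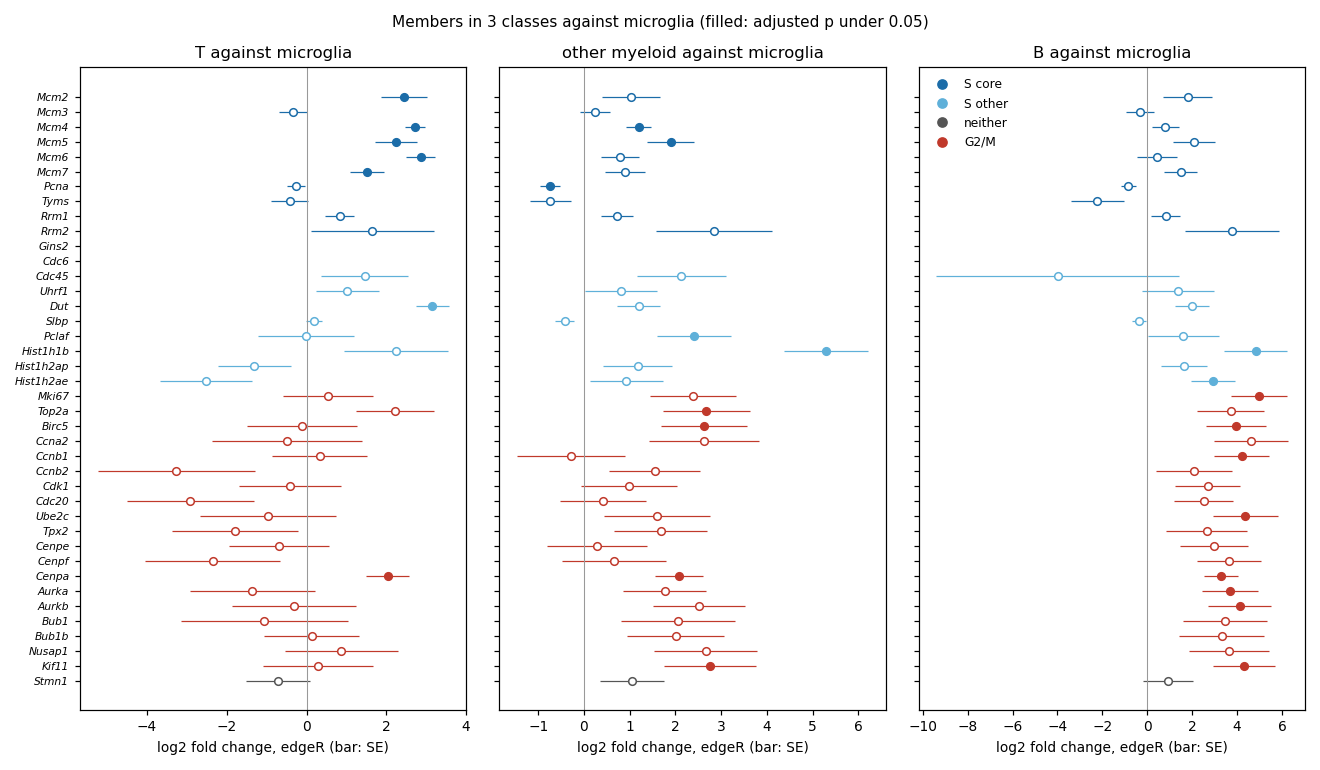
Log2 fold change against microglia (x axis, bars are SE) of the members tested by edgeR (y axis), for T cells, other myeloid cells and B cells, with a separate x range for each panel. Filled points have an adjusted p under 0.05. The filled points comprise 7 members in T cells, mostly S core, 9 in other myeloid cells and 10 in B cells, mostly G2/M.

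Genes outside the 40 were also compared between T cells and microglia, where 24.1% of all genes tested were higher and 26% lower. Of 28 tested S-phase genes that are not members, 18 were higher and none lower, among them the chromatin factor *Atad2* (2.23), the maintenance methyltransferase *Dnmt1* (1.63), *Rpa3* (1.44) and the deubiquitinase *Usp1* (1.42, all log2 fold changes). Of 38 other G2/M genes 7 were higher and 1 lower, smaller shares than among all genes, with the condensin subunit *Smc4* at 3.82 and the lamin B receptor *Lbr* at 2.39. The cyclins of G1 differed by lineage. *Ccnd2* (7.39) and *Ccnd3* (1.91) were higher and *Ccnd1* (-4.57) lower in T cells, and the antiproliferative gene *Btg2* (-3.14) and the CDK inhibitor *Cdkn1a* (-2.25) were lower, among 10 regulators higher and 6 lower of 28.

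Other myeloid cells differed from microglia in single members, and the spread between libraries was wide. *Hist1h1b*, a linker histone gene, was at 38.1, 13 and 197 CPM against 1.46, 3.1 and 1.45 CPM in microglia, and the groups did not overlap. *Top2a* was at 21.7, 4.86 and 88.8 CPM against 18.1, 2.58 and 3.87 CPM, and the groups overlapped. *Mki67* was at 45.9, 4.86 and 63.4 CPM against 32.7, 2.06 and 2.90 CPM. *Birc5* was at 9.96, 8.1 and 52.0 CPM against 9.28, 1.55 and 2.90 CPM, and *Kif11* at 10.4, 1.62 and 26.6 CPM, from 2, 1 and 2 cells. Of 38 members, 8 were higher and 1 lower, where 47.4% of all genes tested passed, 23.8% higher and 23.6% lower. The largest differences were *Hist1h1b* (log2 fold change 5.29 ± 0.92 SE, adjusted p = 0.000462 by edgeR), the spindle motor *Kif11* (2.75 ± 1.01, adjusted p = 0.0398), *Top2a* (2.68 ± 0.95, adjusted p = 0.0345), *Birc5* (2.62 ± 0.93, adjusted p = 0.0352) and *Pclaf* (2.40 ± 0.81, adjusted p = 0.0273), followed by *Cenpa* (2.08), *Mcm5* (1.90) and *Mcm4* (1.20). *Pcna*, at 64.1, 45.3 and 73.6 CPM, was lower than in microglia (-0.74 ± 0.22, adjusted p = 0.0138). Niacin 2 held 6 of the 11 cells with 8 or more members. Without it, 1 of 34 tested members was higher and 2 lower, beside 1729 and 1449 of 10179 genes. Without the vehicle library 23 of 30 tested members were higher and 2 lower, beside 2254 and 2528 of 8891 genes. Without the shared barcodes 16 members were tested, beside 1859 genes higher and 1855 lower of 9469. Of these members 4 were higher (*Cenpa*, *Mki67*, *Mcm5*, *Mcm4*) and 5 lower (*Pcna*, *Stmn1*, *Slbp*, *Hist1h2ap*, *Hist1h2ae*), and *Top2a* turned to -0.15. In cells with under 8 members 5 of 18 tested members were higher and 6 lower, beside 2526 and 2407 of 10248 genes. Without the 5% of cells with the most UMIs 3 of 36 were higher and 4 lower, beside 2449 and 2348 of 10413 genes. The median over the 38 tested members was 1.37, against -0.07 over all genes. It was 0.06 over the 18 members tested in cells with under 8 members. Without the deepest cells it was 0.24 over 36 members, and without the shared barcodes -0.23 over 16. These medians cover different sets of members. Of the 19 G2/M genes 4 were higher (21.1%), near the share of all genes.

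Outside the 40, 7 of 28 S-phase genes and 9 of 38 G2/M genes were higher in other myeloid cells, shares near the 23.8% of all genes that were higher, and no G2/M gene was lower. *Smc4* (2.47), *Lbr* (1.78), *H2afx* (1.78), the chromatin protein *Hmgb2* (1.67) and *Cks2* (1.61) led the G2/M genes, and *Usp1* (1.66), *Rpa3* (1.06) and *Dnmt1* (0.80) the S-phase genes. Of 28 regulators 9 were higher and 5 lower. *Ccnd2* (5.40), *Cdkn2d* (2.84), *Cdkn1a* (2.11) and *Ccnd3* (1.82) were higher and *Btg2* (-2.99), *Myc* (-2.02) and *E2f3* (-1.96) lower.

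B cells could be tested only in the niacin libraries, with 27 and 46 cells. *Mki67* was at 221 and 3.76 CPM in these, from 49 UMIs in 2 cells and 1 UMI in 1 cell, and at 167 CPM in the 17 B cells of the vehicle library, *Hist1h1b* at 81.0 and 15.0 CPM and *Top2a* at 94.5 and 0 CPM. The mitotic genes were thus high in niacin 1, where 1 cell held nearly all of them, and low in niacin 2. Of 38 members, 10 were higher than in microglia and none lower, where 27.4% of all genes passed, 12.7% higher and 14.7% lower. *Mki67* (log2 fold change 4.97 ± 1.23 SE, adjusted p = 0.0091 by edgeR), *Hist1h1b* (4.82 ± 1.39, adjusted p = 0.0211), the ubiquitin-conjugating enzyme *Ube2c* (4.36 ± 1.45, adjusted p = 0.0408), *Kif11* (4.29 ± 1.38, adjusted p = 0.0353) and *Ccnb1* (4.20 ± 1.22, adjusted p = 0.0221) were the largest, and *Aurkb*, *Birc5*, *Aurka*, *Cenpa* and *Hist1h2ae* also passed. The median over the tested members was 2.66, against -0.20 over all genes. Members could enter the test through the few cells in which they were high. *Ube2c* (42 UMIs) and *Kif11* (12 UMIs) each came from 1 cell in niacin 1 and had 0 UMIs in niacin 2. The calls and the median are therefore descriptions that rest in part on few cells. In B cells with under 8 members 18 members were tested, beside 1303 genes higher and 1512 lower of 10248. The 5 calls there were *Cenpa*, *Dut*, *Mcm7*, *Mcm2* and *Mcm5*, and *Mki67* did not pass. This setting takes out 93.4% of the G2/M UMIs of B cells by construction. Without the shared barcodes 16 members were tested, and *Dut*, *Cenpa* and *Mcm2* passed, beside 1072 genes higher and 1496 lower of 9469. The vehicle library holds no B cell sum of 20 cells. Leaving it out of the model gave 15 of 30 tested members higher and 1 lower, beside 1478 and 1916 of 8891 genes. Of genes outside the 40, 5 of 28 S-phase genes, 12 of 38 G2/M genes and 3 of 28 regulators were higher, led by *Usp1* (1.80), *Smc4* (3.39) and *Ccnd2* (4.83), and 5 regulators were lower, with *Ccnd1* at -10.66. NK cells reached 20 cells in 1 library only, with *Mcm4* at 141, 0 and 17.3 CPM and *Slbp* at 108, 154 and 208 CPM, and were not tested.

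The treatment comparison asked whether the members differed between niacin and vehicle within a class. There was 1 vehicle library, so the spread among vehicle pools is unknown, the p values assume that it equals the spread between the 2 niacin libraries, and treatment cannot be told apart from any other difference between the libraries. In microglia the mitotic genes were higher in the vehicle library than in both niacin libraries. *Mki67* was at 32.7, 2.06 and 2.90 CPM, from 67 UMIs in 13 cells, 8 UMIs in 3 cells and 12 UMIs in 5 cells. *Cenpf* was at 34.2, 2.84 and 1.94 CPM, *Cenpe* at 27.3, 1.03 and 3.87 CPM, *Ube2c* at 23.4, 2.32 and 2.90 CPM and *Top2a* at 18.1, 2.58 and 3.87 CPM. *Ccnb1* was at 5.37, 0.774 and 1.94 CPM, and *Stmn1* at 63.5, 23.0 and 33.6 CPM. Most replication genes differed less. *Rrm1* was at 22.5, 15.2 and 10.6 CPM and *Mcm2* at 6.84, 3.87 and 3.87 CPM, both highest in the vehicle library. *Pcna* was at 136, 120 and 96.3 CPM, *Slbp* at 84.5, 103 and 98.5 CPM, *Mcm3* at 36.1, 27.4 and 33.9 CPM, *Mcm5* at 4.39, 3.61 and 7.98 CPM and *Rrm2* at 1.46, 0 and 1.69 CPM.

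Of 35 members tested among 11242 genes in microglia, 15 were lower and 2 higher with niacin, where 24% of all genes passed, 12.6% lower and 11.4% higher. The lower members comprised 13 of 17 tested G2/M genes, *Rrm1* and *Stmn1* (log2 fold change -1.09 ± 0.18 SE, adjusted p = 3.95e-08 by edgeR). The largest decreases were those of *Cenpf* (-3.76 ± 0.37, adjusted p = 3.15e-22), *Mki67* (-3.62 ± 0.37, adjusted p = 2.02e-20), *Cenpe* (-3.37 ± 0.39, adjusted p = 2.05e-15), the checkpoint kinase gene *Bub1b* (-3.27 ± 1.00, adjusted p = 0.00807) and *Ube2c* (-3.07 ± 0.41, adjusted p = 1.11e-11). *Hist1h2ae*, at 27.8, 60.4 and 52.5 CPM (1.09 ± 0.20, adjusted p = 2.4e-06), and *Hist1h2ap*, at 45.9, 47.5 and 77.9 CPM (0.52 ± 0.18, adjusted p = 0.0179), were higher, with the reservation on their shared sequence given above. The median over the tested members was -1.44, against 0.02 over all genes. All 17 kept their sign with either niacin library left out. For *Hist1h2ap* the difference came mainly from niacin 2, since niacin 1 was at 47.5 CPM against 45.9 CPM in the vehicle library. The vehicle library, on which each difference depends, could not be left out.

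The 12 vehicle microglia with 8 or more members held 87.2% of the G2/M UMIs behind these values. In microglia with under 8 members 1 member passed (*Hist1h2ae*, higher), and *Cenpa* and *Cdk1* turned to positive values. This setting chooses cells by the members themselves and takes out most G2/M UMIs by construction, so it describes where the UMIs lay. Without the shared barcodes *Mki67* was lower and *Hist1h2ae* higher, and with cells thinned to 2000 UMIs *Cenpf* and *Mki67* were lower and *Hist1h2ae* higher. Keeping only the deepest copy of each shared barcode left 3022 of the 3039 cells. The median over the 35 tested members was -1.44 there as with all cells. So few cells left that this setting could hardly differ and is no check on the sharing. DESeq2 gave no adjusted p for 33 of the 35 members, and 3 members, *Cenpf*, *Mki67* and *Ube2c*, passed when its independent filtering was off. Outside the 40, 17 of 33 tested G2/M genes were lower and none higher, among them *Anp32e* (-0.73) and *Tmpo* (-0.58), and 1 of 27 S-phase genes was higher. Of all genes tested, 12.6% were lower and 11.4% higher. Among regulators *Btg2* (0.80), *Trp53* (0.46) and *Cdkn1b* (0.43) were higher and *Cdkn1a* (-0.61) and *Myc* (-0.41) lower. Of 19 monocyte and macrophage genes that did not serve as class markers, 14 were lower with niacin in the same sums, and their part in the result was not tested.

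**Figure D5:**
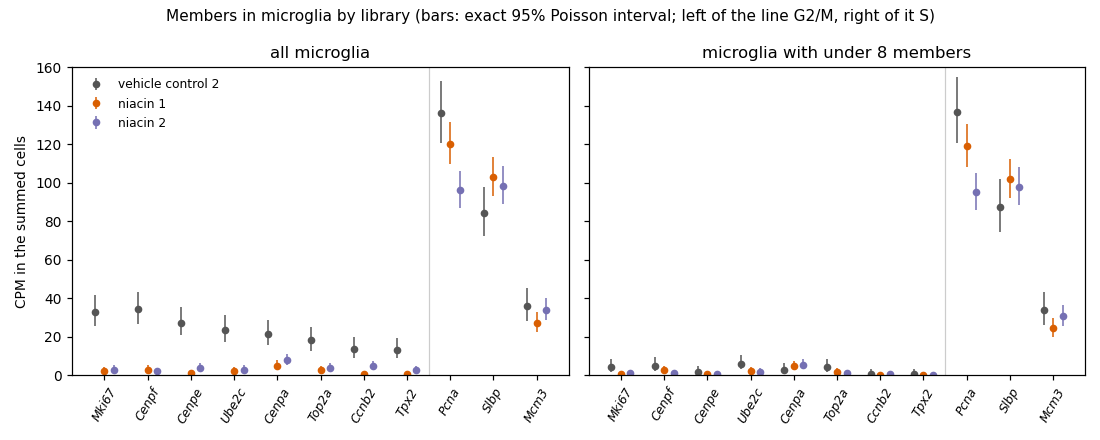
Level of 8 G2/M members and 3 S members (x axis) in microglia by library (y axis, CPM with exact 95% Poisson intervals), in all microglia (left) and in those with under 8 members (right). The vehicle library stands apart for the G2/M members on the left, with *Mki67* at 32.7 CPM against 2.06 and 2.90 CPM, and comes close to the niacin libraries on the right.

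In other myeloid cells none of the 32 members tested among 8024 genes passed, where 4.55% of all genes did (1.1% higher and 3.45% lower). At an unadjusted p under 0.05 edgeR had 1 member and DESeq2 none. The niacin libraries themselves disagreed. *Hist1h2ap* was at 45.9, 13 and 381 CPM, *Hist1h1b* at 38.1, 13 and 197 CPM and *Stmn1* at 27.3, 30.8 and 170 CPM, so that niacin 2 was high and niacin 1 was at or below the vehicle library for both histone genes. *Rrm2* was at 3.03, 0 and 20.3 CPM and *Mcm5* at 12.1, 11.3 and 35.5 CPM. The median log2 fold change over the members tested was 1.19, against 0.01 over all genes. The median log2 difference over the members tested was 1.77 without niacin 1 and -1.15 without niacin 2. In T cells 3 of 18 tested members were lower and none higher, where 17.1% of 8297 genes passed, 8.08% lower and 9.06% higher. *Uhrf1*, which recruits the maintenance methyltransferase, was at 18.3, 0 and 2.24 CPM, from 17, 0 and 2 UMIs. The lower members were *Uhrf1* (log2 fold change -3.42 ± 1.14 SE, adjusted p = 0.0218 by edgeR), *Top2a* (-1.97 ± 0.38, adjusted p = 6.05e-06) and *Mcm5* (-1.53 ± 0.43, adjusted p = 0.00437), and none of them passed in T cells with under 8 members. Beside them the licensing factor *Cdt1* (-1.57), *Cdk6* (-1.12) and *Ccnd2* (-0.58) were lower and *Cdk4* (0.76) and *Btg2* (0.67) higher in T cells. NK and B cells had too few cells for this test.

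Finally, microglia with at least 3 members were compared with those that had none, on counts thinned to 2000 UMIs and for genes other than the members (16, 28 and 32 cells against 102, 275 and 263). Of 2986 genes tested 0.301% passed, 0.167% higher and 0.134% lower. Of 17 tested cell cycle genes that are not members 1 was higher, *Hmgb2* (log2 fold change 1.15 ± 0.27 SE, adjusted p = 0.0175 by edgeR). It did not pass without thinning, without the shared barcodes or in DESeq2. None of the 10 microglia markers and none of 20 further microglia genes passed in either direction. The markers had also served to class both groups as microglia. Among monocyte and macrophage genes outside the markers, *Ifitm3* was higher (1.60 ± 0.40, adjusted p = 0.0247 by edgeR) and *Lyz2* did not pass (-0.42). With fewer than 10 cells of at least 3 members in a library, T cells and other myeloid cells could not be fitted.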

How the data were processed

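Live cells were sorted after Percoll separation and sequenced with a droplet 3′ kit, and the authors made the files with Cell Ranger 3.1 (STAR alignment, mm10 mouse genome). The deposited files hold raw UMI counts for each gene in each barcode called as a cell. Barcodes with at least 200 genes, at most 20% mitochondrial UMIs and at least 2000 UMIs were kept. A cell took the class whose marker list had the most UMIs, with at least 3 UMIs from at least 2 markers and 2 times the UMIs of the next of 12 lists. No doublet caller was run here, and leaving out the 5% of cells with the most UMIs served as an alternative. Thinning drew 2000 UMIs per cell (seed 7). A member counted as detected from 1 UMI. Counts of the cells of a class were added up within each library, and sums of at least 20 cells (10 for the comparison of cells with and without members) were tested with edgeR 4.0.16 in R 4.3.3 (quasi-likelihood test, TMM, filterByExpr, Benjamini-Hochberg over all genes tested, adjusted p under 0.05), with library as a block in comparisons between cells of the same libraries. The library block follows from the design, since the cells of a library come from 1 pool. SEs were the log2 fold change over the square root of F. DESeq2 1.42.0 was an alternative. Intervals are exact (binomial for shares, Poisson for CPM, UMIs per 1000000) and cover counting error only.

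The text gives full statistics for up to 5 members per direction with the largest log2 fold change past the threshold, values by library for *Mki67*, *Top2a*, *Pcna*, *Mcm5*, *Rrm2*, *Stmn1*, *Ccnb1*, *Hist1h1b* and the most abundant members of a class, and up to 5 genes per direction of the other lists at a mean of at least 20 CPM; where other members are named, they were chosen after their values were seen. The members and gene lists were chosen with earlier results of these data known. The nature of the replicates is 1 pool per library. In comparisons with library as a block, p values measure how far the difference between classes or cell groups varied from pool to pool. For niacin against vehicle they measure the spread between the niacin pools only. On simulated counts with 200 genes changed, edgeR recovered 90% of 4-fold and 32% of 2-fold changes for T cells against microglia, 97% and 33% for other myeloid cells, 53% and 4% for B cells, and 63% and 9% for niacin against vehicle in microglia. Promoter windows came from RefSeq, and 3′ overlaps were sought over the last 500 bases of transcripts in stretches of the read length, 91 bases. In all, 106 alternatives were planned, and others, with the 8-member level, were added after seeing the data. The values of 1 gene of the other lists are not reported here.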

Additional observations from a re-analysis of the deposited data

Results flagged for a closer look

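Among the 105 cells that no marker list classed, and which entered no comparison, 12 cells had 8 or more of the 40 members. They were flagged because they lie outside the classes compared. Of these 12 cells 8 were in vehicle control 2, 3 in niacin 1 and 1 in niacin 2, 9 carried a barcode present in another library, and they had 8 to 40 members, so that at least 1 of them held every member.

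*Slbp* was flagged because its level moved in opposite ways in microglia and T cells, with both niacin values outside the counting interval of the vehicle value. In microglia it was at 84.5 CPM in vehicle control 2, 103 CPM in niacin 1 and 98.5 CPM in niacin 2. In T cells it was at 127, 77.2 and 84.0 CPM in the same order. The difference between the classes was not tested. Without the shared barcodes at least 1 niacin value lay inside the counting interval of vehicle control 2 in each class. *Slbp* was then at 100.0 CPM (84.5 to 117), 115 and 99.9 CPM in microglia and at 118 CPM (95.4 to 145), 96.4 and 76.8 CPM in T cells.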

How the results depend on the processing

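The mean share of cells with at least 3 members moved with the depth and the number of members required. In the order microglia, other myeloid, T, NK and B cells it was 61.5%, 59.0%, 82.9%, 79.0% and 69.7% with at least 2 members, 7.97%, 14.5%, 16.7%, 17.8% and 13.7% with at least 5 members and 5.02%, 5.27%, 7.24%, 6.73% and 15.2% after thinning to 2000 UMIs. For microglia, other myeloid, T and NK cells it was 28.7%, 27.9%, 45.3% and 39.0% from 1000 UMIs, 45.7%, 43.0%, 66.0% and 71.9% from 4000 UMIs and 29.5%, 20.6%, 53.3% and 28.3% without the shared barcodes. With at most 10% mitochondrial UMIs it was 39.9%, 63.4% and 67.5% in other myeloid, T and NK cells. Without the 5% of cells with the most UMIs it was 33.3% and 56.9% in other myeloid and T cells, and with a class margin of 5 times 61.0% in T cells. The S core share of other myeloid cells was 73.9% without the shared barcodes, 69.2% without the 5% of cells with the most UMIs and 71.8% in cells with under 8 members, and that of T cells was 69.2% without *Pcna*. Another number of members or another gene list changes the value by its definition, the other settings count other cells or fewer UMIs per cell, and the cause was not tested further.

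The number of members called in other myeloid cells, T cells and B cells against microglia was 9, 7 and 10 of 38 tested. With no filter on low counts it was 22, 15 and 20 of 40. Of 17986 genes, 2668, 2638 and 1372 were higher and 2798, 3094 and 1863 lower in that setting. Keeping only the deepest copy of each shared barcode left it at 9, 7 and 10 of 38. That setting kept 3022 of the 3039 cells, so it could hardly differ. DESeq2 gave 5 of 38 for other myeloid cells, beside 2017 genes higher and 1886 lower of 10510. With only the 2 classes compared it was 13 of 20 for T cells, beside 2814 genes higher and 3101 lower of 10204. For B cells it was then 21 of 36, beside 1297 genes higher and 2026 lower of 10795. Thinned counts gave 3 for other myeloid and 2 for B cells, of 18 tested. Of 6669 genes, 1409 and 699 were then higher and 1306 and 1008 lower. The shared barcodes left out gave 11 for T and 3 for B cells, of 16. Of 9469 genes, 2186 and 1072 were then higher and 2438 and 1496 lower. Cells with under 8 members gave 11 and 5, of 18. Of 10248 genes, 2539 and 1303 were then higher and 2730 and 1512 lower. A minimum of 1000 UMIs gave 26 of 38 for B cells, beside 1690 genes higher and 2033 lower of 10710. Leaving out 1 library left 30 to 35 members tested and gave 3 to 25 calls for other myeloid cells and 6 to 11 for T cells. In these fits 1729 to 2254 genes were higher and 1449 to 2528 lower in other myeloid cells. In T cells 1738 to 2205 were higher and 1985 to 2715 lower. For B cells, which only the omission of the vehicle library left testable, it gave 16 of 30, beside 1478 genes higher and 1916 lower of 8891. No paired analysis was possible, because there was 1 vehicle library and the labels link no niacin pool to it. Without the replicate block on library the class comparisons gave 8, 7 and 10 calls of 38 members. Of 10510 genes, 2199, 2222 and 1294 were then higher and 2102, 2424 and 1550 lower. The comparison of microglia with and without members gave 0 in place of 1 without this block. That comparison also gave 0 with no filter, in DESeq2, without thinning, without the shared barcodes and without each library in turn.

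For niacin against vehicle in microglia (17 members) DESeq2 gave 0, with 33 of 35 members left without an adjusted p, and 3 without its independent filtering. Thinned counts gave 3, the shared barcodes left out 2, and cells with under 8 members 1. In other myeloid cells (0) no filter on low counts gave 10 and cells with under 8 members 1. In T cells (3) both DESeq2 settings, thinned counts and cells with under 8 members gave 0, and the shared barcodes left out gave 1. Directions turned for *Top2a* (log2 fold change -0.15) in other myeloid cells against microglia without the shared barcodes, for *Kif11* there without the 5% of cells with the most UMIs (-1.90), for *Hist1h2ae* in B cells without the shared barcodes (-0.24) and in cells with under 8 members (-0.45), and for *Cenpa* (0.99) and *Cdk1* (0.51) in niacin against vehicle in microglia with under 8 members. Of the other values of single members under these settings, 336 kept direction and call and 81 lost the call.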

Other observations

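Of the 117 neutrophils 5 had 8 or more members, of the 273 choroid plexus cells 1 and of the 73 erythroid cells 3, the last of 1 distinct barcode. Erythroid cells carried shared barcodes in 68 of 73 cells. None of these classes entered a test.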
